A study of Rattus norvegicus with 47 samples.

Results

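The 5 genes described here, Fkbp5, Tsc22d3, Sgk1, Nr3c1 and Hsd11b1, belong to the glucocorticoid system and were followed over 47 rat liver arrays in 13 groups of 3 experiments. They were taken as the probe sets whose single platform gene symbol is one of these names. That gave 7 of the 31099 probe sets in the table and 5 of its 14217 named genes. Each gene is described by its probe set with the highest mean (1388901_at for Fkbp5, 1367771_at for Tsc22d3, 1367802_at for Sgk1, 1368221_at for Nr3c1 and 1386953_at for Hsd11b1). The second probe sets of Fkbp5 (1380611_at) and Nr3c1 (1368222_at) are given beside them. All 5 main probe sets lay above the 40th percentile of every one of the 47 arrays, and none of the 7 was at an array's floor.

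RNA came from livers of female Sprague-Dawley rats, 1 rat per array, all killed at 8 weeks of age. In the diet experiment, pups of dams on a vitamin A-deficient purified diet were weaned onto that diet carrying no retinol (vitamin A; 0 mg/kg, 5 deficient rats), 0.4 mg/kg of it (7 marginal rats), 4 mg/kg (6 adequate rats), or 100 mg/kg (2 supplemented rats). In the RA course, rats raised to be vitamin A-deficient received vehicle (0 h, 3 arrays) or about 100 µg of all-trans-retinoic acid (RA), by a route not stated, and were killed at 3, 6, 10 or 16 h (3 arrays at each time, 4 at 10 h). In the intravenous (iv) RA course, rats on a stock diet were dosed with oil vehicle and had their food removed. On the next day, under light isoflurane, they had a cut made over an iliac vein and vehicle (0 min, 2 arrays) or about 25 µg of albumin-bound RA injected into it, and were killed 30, 60 or 90 min later (3 arrays each). Sample titles call both vehicle groups untreated. No vehicle group was killed at a later time in either course, so RA cannot be told apart from the time since dosing, the hour of day, the length of fasting or, in the iv course, the recovery from anaesthesia and the cut.

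Corticosterone, the main glucocorticoid of the rat, enters cells and binds the glucocorticoid receptor, which is held in the cytosol by heat shock protein 90 and its co-chaperones. The bound receptor moves to the nucleus and binds DNA at palindromic elements near its target genes. In liver this system supports glucose production during fasting and stress, and it restrains inflammation. Nr3c1 encodes the receptor. Hsd11b1 encodes the enzyme of the endoplasmic reticulum that makes active corticosterone from its inactive 11-keto form inside the hepatocyte. Fkbp5 encodes a co-chaperone that lowers the receptor's affinity for hormone and is itself induced by it, which closes a feedback loop. Tsc22d3 encodes GILZ, a leucine zipper protein that binds and restrains inflammatory transcription factors. Sgk1 encodes a kinase that glucocorticoids, mineralocorticoids and insulin signalling act on, known for its control of sodium channels and FOXO factors.

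In the RefSeq gene set of the GRCr8 assembly, Fkbp5 lies on chromosome 20 (6458931 to 6577227), Tsc22d3 on chromosome X (109006410 to 109066389), Sgk1 on chromosome 1 (24799391 to 24916886), Nr3c1 on chromosome 18 (31522783 to 31644508) and Hsd11b1 on chromosome 13 (107277526 to 107327462). A table of promoter windows made from RefSeq on GRCr8, each running from 250 bases before a gene's start to 50 bases after it, held 9 windows for 4 of the 5 genes. Hsd11b1 was not among them. One window is shown for each of the 3 genes known mainly as targets of the receptor, with matches to the motifs searched in capitals. Tsc22d3 and Sgk1 each had other windows, which are not shown. All lie on the minus strand and are printed 5′ to 3′.
Fkbp5, chr20:6543506-6543805: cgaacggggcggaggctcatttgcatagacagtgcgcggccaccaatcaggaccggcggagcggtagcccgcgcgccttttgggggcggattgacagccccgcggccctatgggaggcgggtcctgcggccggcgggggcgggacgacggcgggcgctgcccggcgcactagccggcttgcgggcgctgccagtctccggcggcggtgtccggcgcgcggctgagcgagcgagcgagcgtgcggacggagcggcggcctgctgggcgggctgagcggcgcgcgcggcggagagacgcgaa
Tsc22d3, chrX:109065381-109065680: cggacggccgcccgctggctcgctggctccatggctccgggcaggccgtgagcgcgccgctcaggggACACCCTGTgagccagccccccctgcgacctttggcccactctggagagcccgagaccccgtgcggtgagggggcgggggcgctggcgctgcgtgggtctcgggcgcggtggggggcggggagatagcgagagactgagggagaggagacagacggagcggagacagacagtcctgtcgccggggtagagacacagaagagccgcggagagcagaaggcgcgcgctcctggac
Sgk1, chr1:24804782-24805081: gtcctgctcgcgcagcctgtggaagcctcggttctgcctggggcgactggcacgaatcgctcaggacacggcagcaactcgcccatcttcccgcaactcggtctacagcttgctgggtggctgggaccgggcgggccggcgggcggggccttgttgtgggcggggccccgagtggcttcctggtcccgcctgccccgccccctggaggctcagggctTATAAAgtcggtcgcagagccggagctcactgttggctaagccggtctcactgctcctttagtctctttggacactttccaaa
Both strands of all 33469 windows were searched. The full palindromic element of the glucocorticoid receptor was in 0 of the 9 windows of these genes and in 0.0149% of all windows. Its core ACANNNTGT, which the full palindrome contains, was in 1 of the 9, the Tsc22d3 window above, from base -183 to -175 relative to the start, and in 6.86% of all windows. The direct repeat that the retinoic acid receptor binds, with a spacing of 5 bases, was in 0 of the 9 and in 0.00896% of all windows. TATAAA was in 3 of the 9 and in 14.2% of all, and in the Sgk1 window shown it ran from base -33 to -28. A Tsc22d3 window not shown held TATAAA from base -44 to -39 and no core of the glucocorticoid element. The Fkbp5 window shown held none of the 4 motifs. These are matches of exact letters in short windows. Variants of these elements, other spacings and elements farther away were not searched.

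Values are log2 signals relative to the median of the array, and differences are log2 differences with their standard error (SE) from limma. Called means an adjusted p (Benjamini-Hochberg, over every probe set tested in the comparison) below 0.05. The median probe set was 10.0 to 69.8 times brighter than the array's floor. The 5 hepatocyte markers on the array had log2 summed signals of 10.1 to 12.4, high in every group. Arrays of the RA course at 16 h correlated least with their own group (mean r of 0.6585 to 0.6935, against 0.895 to 0.913 in the iv course). In whole liver, fewer cells of a type and less RNA per cell cannot be told apart.

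The iv RA course asked which liver transcripts respond within minutes of an RA dose. Fkbp5 rose at 90 min, when its signal was 2.8-fold that of vehicle, and was not called at the earlier times. It was 1 of the 5 genes called at 90 min against vehicle, when 0.334% of all probe sets were called higher and 0.505% in either direction. At 30 min 0 of the 5 were called (0.0878% of probe sets called in either direction, 1 of the 5 with an unadjusted limma p under 0.05). At 60 min 0 of the 5 were called (0.386% of probe sets, 2 of the 5 with an unadjusted limma p under 0.05). Tsc22d3 and Sgk1 lay above vehicle from 30 min on without being called.

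**Figure D1:**
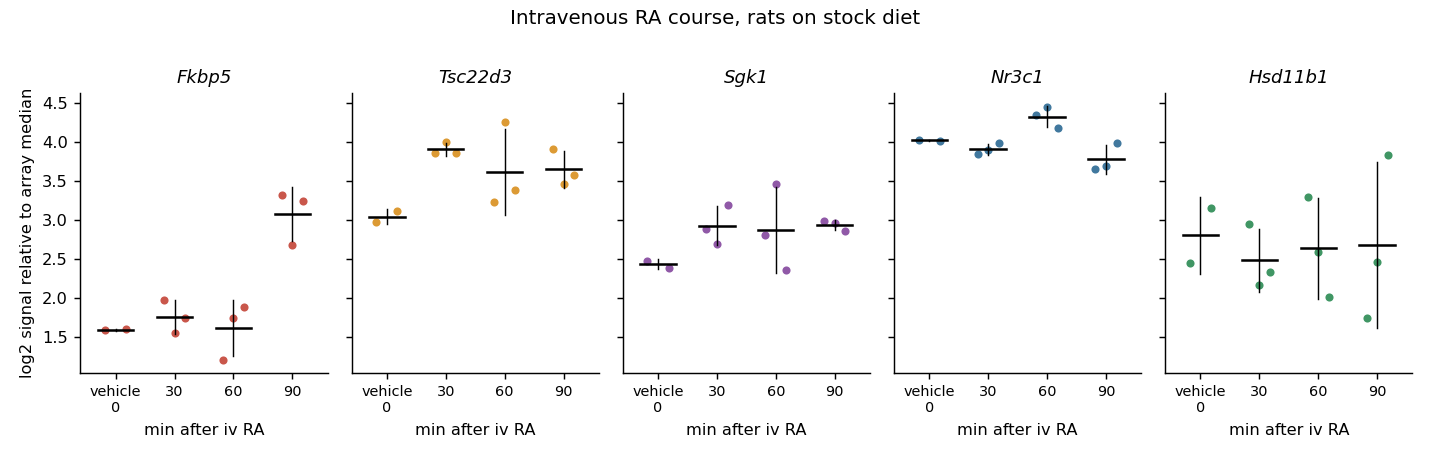
Log2 signal of each gene relative to the array median (vertical axis) by minutes after iv RA, with vehicle at 0 min. Each point is 1 array, horizontal bars are group means and vertical lines 1 SD (2 vehicle arrays, 3 arrays at each other time). The 3 Fkbp5 arrays at 90 min lie at 2.69 to 3.32, above all other arrays of the course for that gene.

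Fkbp5 had log2 levels of 1.588 and 1.605 on the vehicle arrays, 1.98, 1.55 and 1.75 at 30 min, 1.21, 1.75 and 1.89 at 60 min, and 3.32, 2.69 and 3.24 at 90 min. The arrays of the first 3 groups overlapped, and all 3 arrays at 90 min lay above every one of them. The difference of 90 min from vehicle was 1.49 ± 0.24 (limma adjusted p = 0.0114), and that of 90 min from 60 min was 1.47 ± 0.21 (limma adjusted p = 0.0224, with 0.0878% of probe sets called higher, 0.0966% in either direction, and 6.33% with all 90 min arrays above all 60 min arrays). At 30 min the difference from vehicle was 0.16 ± 0.24 with a 95% interval of -0.35 to 0.67, and at 60 min it was 0.02 ± 0.24 with an interval of -0.49 to 0.53. The second probe set gave the same course, with levels of 1.72, 1.51 and 2.00 at 90 min. It differed from vehicle by 1.43 ± 0.27 (limma adjusted p = 0.0296) and from 60 min by 1.19 ± 0.24 (limma adjusted p = 0.0743).

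The Fkbp5 difference lay between 1.37 and 1.68 when 1 array was left out and was 1.65 after quantile normalization (limma adjusted p = 0.00922). Its call did not always hold. The adjusted p was 0.108 without vehicle replicate 1, 0.0901 without vehicle replicate 2, 0.123 with eBayes without an intensity trend, and 0.282 in 1 fit over all 47 arrays. The call against 60 min was lost without replicate 1 (0.0629) or 3 (0.0721) at 90 min, and without replicate 2 (0.0648) or 3 (0.0593) at 60 min. Neutrophil markers were also higher in these livers. Their log2 summed signal (5 markers on the array) was 2.21 to 3.10 at 90 min and 1.70 to 2.14 at 60 min, against 1.03 to 1.12 in vehicle livers. Of the 2 markers tested 1 was called higher at 90 min, beside 0.334% of all probe sets. No marker of that list was at the floor on all arrays of a group, and the part of these cells in the Fkbp5 result was not tested. Replicate 1 at 90 min also had the largest excess of 3′ over 5′ Gapdh signal in the course, at 0.815.

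Tsc22d3 had log2 levels of 2.97 and 3.11 on the vehicle arrays, 3.86, 3.99 and 3.86 at 30 min, 3.22, 4.25 and 3.38 at 60 min, and 3.91, 3.46 and 3.57 at 90 min. Every array after RA lay above both vehicle arrays, with the least spread at 30 min. The difference from vehicle was 0.86 ± 0.24 at 30 min (limma adjusted p = 0.299, 95% interval 0.36 to 1.37), 0.58 ± 0.24 at 60 min (adjusted p = 0.423) and 0.60 ± 0.24 at 90 min (adjusted p = 0.368). None was called. At 30 min, 8.46% of all probe sets had every RA array above both vehicle arrays, at 60 min 9.29% and at 90 min 8.75%.

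Sgk1 had log2 levels of 2.48 and 2.39 on the vehicle arrays, 2.89, 2.70 and 3.19 at 30 min, 2.80, 3.46 and 2.37 at 60 min, and 2.99, 2.97 and 2.86 at 90 min. All arrays at 30 and 90 min lay above both vehicle arrays, while 1 array at 60 min lay below them. The differences were 0.49 ± 0.24, 0.44 ± 0.24 and 0.50 ± 0.24 in the order of time (limma adjusted p = 0.586, 0.578 and 0.486), and each 95% interval reached just below 0.

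Nr3c1 spread little within its groups. Its log2 levels were 4.02 and 4.01 on the vehicle arrays, 3.84, 3.89 and 3.98 at 30 min, 4.35, 4.44 and 4.17 at 60 min, and 3.66, 3.69 and 3.99 at 90 min. The 60 min arrays lay above all others, and 9.29% of all probe sets had every 60 min array above both vehicle arrays. The share with 60 min arrays above those at 30 and 90 min was not counted. Arrays at 30 and 90 min lay below both vehicle arrays, as in 19.1% and 20.1% of all probe sets. The difference of 90 min from 60 min was -0.55 ± 0.12 (limma adjusted p = 0.108), and that of 60 min from 30 min was 0.42 ± 0.12 (limma adjusted p = 0.348). In that last comparison 0 of the 5 genes were called, as 0.0615% of probe sets were, and 1 of the 5 had an unadjusted limma p under 0.05. The second Nr3c1 probe set differed from vehicle by -0.10 to 0.08 over the 3 times, with an SE of 0.38.

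Hsd11b1 spread widely in the iv course, with log2 levels of 2.45 and 3.15 on the vehicle arrays, 2.94, 2.17 and 2.33 at 30 min, 3.30, 2.59 and 2.01 at 60 min, and 1.74, 2.46 and 3.83 at 90 min. The 4 groups overlapped. Differences from vehicle were -0.32, -0.17 and -0.12 in the order of time, each with an SE of 0.48.

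Other genes known to respond to glucocorticoids were read from a list of 27, of which 25 were on the array and tested (Zbtb16 and G6pc1 had no matching symbol). At 30 min 2 of the 25 were called higher and 0 lower, beside 0.0878% of all probe sets called in either direction. These were Nfkbia, the inhibitor of NF-kappaB, at 1.36 ± 0.16 (limma adjusted p = 0.00355), and Cebpb, a transcription factor of the acute phase and of gluconeogenesis, at 1.44 ± 0.23 (limma adjusted p = 0.0216). At 60 min 5 were called higher and 2 lower, beside 0.386% of all probe sets called in either direction. Usp2, a deubiquitinase under clock control, differed by 2.37 ± 0.35 (limma adjusted p = 0.00798) and the clock gene Per1 by 1.63 ± 0.23 (limma adjusted p = 0.00721). The 2 lower genes were Pdk4, which restrains pyruvate oxidation in fasting, at -2.39 ± 0.31 (limma adjusted p = 0.00443), and Igfbp1, which binds insulin-like growth factors, at -2.27 ± 0.40 (limma adjusted p = 0.0234).

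At 90 min 6 of the 25 were called higher and 0 lower, beside 0.334% of all probe sets called higher. The 6 included Usp2 at 2.86 ± 0.35 (limma adjusted p = 0.00131) and Nfkbia at 2.34 ± 0.16 (limma adjusted p = 4.61e-06). They also included the growth arrest gene Gadd45a at 1.83 ± 0.25 (limma adjusted p = 0.0035) and Cebpb at 1.53 ± 0.23 (limma adjusted p = 0.0061). Pdk4 and Igfbp1 were higher at 90 min than at 60 min, by 1.82 ± 0.28 and 2.25 ± 0.35 (limma adjusted p = 0.0224 and 0.0232). The median difference of the 25 genes from vehicle was 0.59, 0.81 and 0.72 at 30, 60 and 90 min, beside -0.10, -0.10 and -0.11 over all probe sets. Several classical targets were not called in the iv course. Dusp1, a phosphatase of MAP kinases, differed by 1.26 ± 0.34 at 30 min (limma adjusted p = 0.299), and Tat, tyrosine aminotransferase, by 0.99 ± 0.30 (limma adjusted p = 0.338). Both were within 0.31 of vehicle at 60 and 90 min. Pck1, the gluconeogenic enzyme PEPCK, stayed within 0.06 of vehicle at all 3 times, with an SE of 0.13. Fkbp4, the co-chaperone that opposes Fkbp5 on the receptor complex, differed by -0.29 to -0.41 (limma adjusted p of 0.42 to 0.577).

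**Figure D2:**
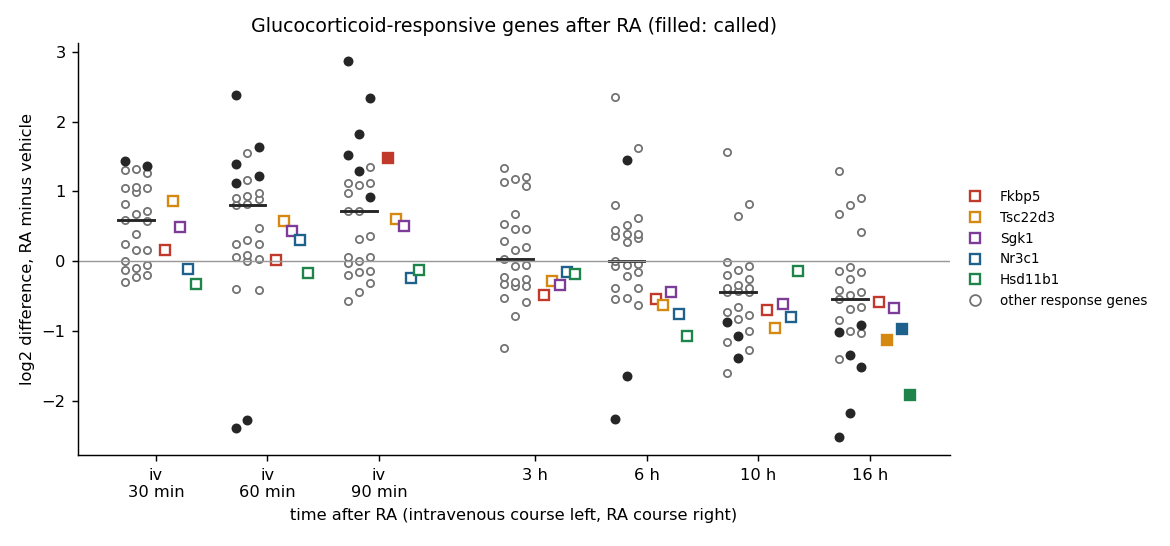
Log2 difference of RA minus vehicle (vertical axis) for the 25 other glucocorticoid-responsive genes (circles, with a bar at their median) and the 5 genes described here (squares) at each time of both courses. Filled symbols were called: among the squares Fkbp5 at 90 min iv, and Tsc22d3, Nr3c1 and Hsd11b1 at 16 h.

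Immediate early and clock genes were called in the same livers. Over all probe sets 0.0878% were called in either direction at 30 min, 0.386% at 60 min and 0.505% at 90 min. Of 11 immediate early genes tested, 3 were called higher at 30 min, Fos at 2.65 ± 0.34 (limma adjusted p = 0.0055), Egr1 at 1.44 ± 0.16 (limma adjusted p = 0.00244) and Zfp36 at 1.11 ± 0.15 (limma adjusted p = 0.008). Of 15 clock genes tested, 4 were called higher and 2 lower at 60 min, among them the output gene Dbp at 2.99 ± 0.53 (limma adjusted p = 0.0234) and the activator Npas2 at -3.36 ± 0.61 (limma adjusted p = 0.0261). Per2 was higher by 2.34 ± 0.39 at 90 min (limma adjusted p = 0.0142). The part of these changes in the Fkbp5 result was not tested. Of the 13 receptor chaperones measured 0 were called by limma at 30, 60 or 90 min, with 2 at an unadjusted p under 0.05 each time. Of the 11 SGK1 pathway genes 0 were called by limma at any of these times, with 1, 1 and 2 at an unadjusted p under 0.05.

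The RA course asked how the liver of vitamin A-deficient rats responds over hours. The means of all 5 genes lay below vehicle at each of the 4 times, and 3 of them fell at 16 h: Hsd11b1 to 3.76-fold below vehicle, Tsc22d3 to 2.17-fold and Nr3c1 to 1.95-fold. In that comparison 6.11% of all probe sets were called, 5.89% lower and 0.222% higher, and the median of all probe sets was -0.39. At 3 h 0 of the 5 were called (0.0762% of probe sets called, 0 of the 5 with an unadjusted limma p under 0.05). At 6 h 0 were called by limma with equal array weights (0.201% of probe sets, 2 with an unadjusted p under 0.05), and at 10 h 0 (0.488% of probe sets, 2 with an unadjusted p under 0.05). Sgk1 and Fkbp5 were not called at any time. The direction of small differences depended on single arrays and on the processing. With 1 array left out Hsd11b1 reached 0.14 at 3 h and 0.18 at 10 h. As a mean over probe sets Nr3c1 reached 0.21 at 3 h.

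**Figure D3:**
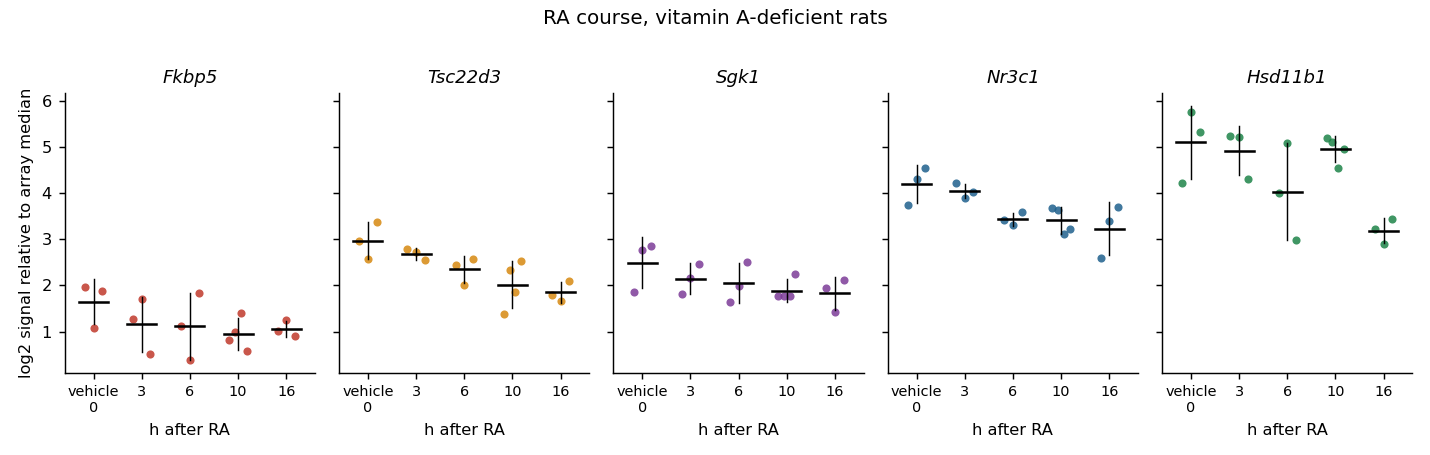
Log2 signal of each gene relative to the array median (vertical axis) by hours after RA in vitamin A-deficient rats, with vehicle at 0 h. Points are arrays, horizontal bars means and vertical lines 1 SD (3 arrays per time, 4 at 10 h). Tsc22d3 means are lower at each later time, and the 3 Hsd11b1 arrays at 16 h lie at 2.91 to 3.44, below all vehicle arrays.

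Hsd11b1 had log2 levels of 4.22, 5.75 and 5.32 on the vehicle arrays, 5.24, 5.21 and 4.30 at 3 h, 4.01, 5.10 and 2.98 at 6 h, 5.20, 5.10, 4.55 and 4.96 at 10 h, and 3.22, 2.91 and 3.44 at 16 h. Its course was not monotone: the 6 h arrays were scattered, the 10 h arrays were back among the vehicle arrays, and all 16 h arrays lay below both of those groups. The difference from vehicle was -1.91 ± 0.37 at 16 h (limma adjusted p = 0.00425) and -1.07 ± 0.37 at 6 h (limma adjusted p = 0.597). The 16 h arrays lay below those at 10 h by -1.77 ± 0.35 (limma adjusted p = 0.00976), the single call of the 5 genes in that comparison, where 0.714% of probe sets were called lower and 0.807% in either direction. In 6.67% of probe sets every 16 h array lay below every 10 h array. Between 10 h and 6 h 0 of the 5 were called (0.135% of probe sets, 1 of the 5 with an unadjusted limma p under 0.05), and Hsd11b1 differed by 0.92 ± 0.35 (limma adjusted p = 0.563).

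Tsc22d3 had log2 levels of 2.95, 2.58 and 3.37 on the vehicle arrays, 2.79, 2.72 and 2.54 at 3 h, 2.45, 2.02 and 2.57 at 6 h, 1.38, 2.33, 1.85 and 2.52 at 10 h, and 1.79, 1.65 and 2.10 at 16 h. Means were lower at each later time, and from 6 h on every array lay below all vehicle arrays, while neighbouring times overlapped. The difference from vehicle was -0.28 ± 0.32 at 3 h, -0.62 ± 0.32 at 6 h (limma adjusted p = 0.994), -0.95 ± 0.30 at 10 h (limma adjusted p = 0.202) and -1.12 ± 0.32 at 16 h (limma adjusted p = 0.0369).

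Nr3c1 had log2 levels of 3.74, 4.31 and 4.54 on the vehicle arrays, 4.21, 3.89 and 4.03 at 3 h, 3.42, 3.31 and 3.59 at 6 h, 3.67, 3.64, 3.11 and 3.22 at 10 h, and 2.59, 3.40 and 3.70 at 16 h. All arrays at 6 h lay below all at 3 h, and the 3 later groups overlapped one another. The difference of 6 h from 3 h was -0.61 ± 0.27 (limma adjusted p = 1), and 9.77% of probe sets had all 6 h arrays below all 3 h arrays. In that comparison 0 of the 5 were called (0.0208% of probe sets, 2 of the 5 with an unadjusted limma p under 0.05). Against vehicle it was -0.76 ± 0.27 at 6 h (limma adjusted p = 0.652), -0.79 ± 0.25 at 10 h (limma adjusted p = 0.206) and -0.97 ± 0.27 at 16 h (limma adjusted p = 0.0327). The second Nr3c1 probe set differed by -0.78 ± 1.10 at 16 h (limma adjusted p = 0.748).

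Groups that did not overlap were common in this course. All RA arrays lay below all vehicle arrays for 2 of the 5 genes at 6 h, 2 at 10 h and 3 at 16 h, beside 6.5%, 7.46% and 13.8% of all probe sets. The 3 calls at 16 h depended on how the arrays were put on a scale. After quantile normalization the median of all probe sets was -0.06, the count of calls at 16 h was 112 higher and 213 lower in place of 64 and 1701, and 0 of the 5 genes were called: Hsd11b1 differed by -1.30 (limma adjusted p = 0.0653), Tsc22d3 by -0.59 (limma adjusted p = 0.383) and Nr3c1 by -0.35 (limma adjusted p = 0.435). The Hsd11b1 step from 10 h to 16 h was still called, at -1.42 (limma adjusted p = 0.0315).

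Single arrays mattered too. The Tsc22d3 call at 16 h was lost without 16 h replicate 1 (limma adjusted p = 0.094) or 2 (0.0989) and without vehicle replicate 2 (0.0772) or 3 (0.218). The Nr3c1 call was lost without 16 h replicate 1 (limma adjusted p = 0.199) and without vehicle replicate 2 (0.144) or 3 (0.199). Hsd11b1 was called in all 16 fits that left out 1 array, with an adjusted p of at most 0.0495, but not without 16 h replicates 1 and 2 together (0.181). Without an intensity trend in eBayes none of the 3 was called (0.151 to 0.197). With limma array weights, Nr3c1 and Hsd11b1 were called lower at 6 h (limma adjusted p = 0.0239 and 0.0153), and Tsc22d3 and Nr3c1 at 10 h (0.0188 and 0.00431).

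Markers of some other liver cells were lower at 16 h, when 5.89% of all probe sets were called lower and 0.222% higher. The median of all probe sets was -0.39. The log2 summed signal of 8 stellate cell markers was 3.96 to 4.81 at 16 h, against 5.22 to 5.85 in vehicle livers, with 1 of 8 called lower. That of 7 Kupffer cell markers was 6.00 to 6.55 at 16 h, against 6.86 to 7.19 in vehicle livers, with 3 of 7 called lower. The 6 sinusoidal endothelium markers summed to 5.84 to 6.32 at 16 h, against 6.08 to 6.84 in vehicle livers, with 1 of 6 called lower and overlap between the groups. The median differences of single markers were 0.24 for cholangiocytes, 0.21 for T and NK cells, 0.12 for neutrophils, -0.25 for red cells and -0.23 for B cells. On the log2 summed signal, means at 16 h were lower than in vehicle livers for cholangiocyte (3.073 against 3.364) and red cell markers (6.688 against 6.92). They were higher for T and NK cell (2.451 against 2.385), neutrophil (2.329 against 2.148) and B cell markers (0.141 against 0.114). The groups overlapped in each of these lists. Hepatocyte markers summed to 11.2 to 11.9 at 16 h, against 10.8 to 11.4 in vehicle livers, with 1 of 5 called higher. No marker of these lists was at the floor on all arrays of a group, and the part of a shift in cell types in the 3 falls was not tested. Whether the marker calls hold after quantile normalization was not tested either.

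Fkbp5 had log2 levels of 1.97, 1.08 and 1.89 on the vehicle arrays, 1.27, 1.70 and 0.52 at 3 h, 1.12, 0.39 and 1.83 at 6 h, 0.82, 0.98, 1.41 and 0.58 at 10 h, and 1.02, 1.26 and 0.91 at 16 h. Vehicle replicate 2 lay among the RA arrays, and all 5 groups overlapped. The largest difference from vehicle was -0.70 ± 0.43 at 10 h (limma adjusted p = 0.648, 95% interval -1.57 to 0.18). The second probe set differed by -1.02 ± 0.48 at that time (limma adjusted p = 0.499), with all 4 arrays below the vehicle arrays.

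Sgk1 had lower means at each later time, with 2.49 ± 0.56 (SD, n = 3) on vehicle arrays, 2.15 ± 0.33 at 3 h (n = 3), 2.05 ± 0.44 at 6 h (n = 3), 1.89 ± 0.24 at 10 h (n = 4) and 1.83 ± 0.35 at 16 h (n = 3). Neighbouring groups overlapped, and vehicle replicate 1, at 1.85, lay within the range of every RA group. The difference at 16 h was -0.66 ± 0.35 (limma adjusted p = 0.271, 95% interval -1.38 to 0.05).

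The other glucocorticoid-responsive genes changed in both directions at 6 h, when 0.201% of all probe sets were called in either direction. At 3 h 0 of the 25 had been called by limma, with 6 at an unadjusted p under 0.05. At 6 h, 1 was called higher, the gluconeogenic regulator Klf15 at 1.45 ± 0.31 (limma adjusted p = 0.0317), and 2 lower, the lipase inhibitor Angptl4 at -2.25 ± 0.35 (limma adjusted p = 0.00116) and the phosphatidate phosphatase Lpin1 at -1.64 ± 0.32 (limma adjusted p = 0.0148). At 10 h 0 were called higher and 3 lower, beside 0.488% of all probe sets called in either direction. These were Lpin1 at -1.38 ± 0.30 (limma adjusted p = 0.0214), the hormone-induced factor Klf9 at -1.07 ± 0.24 (limma adjusted p = 0.0368) and Pdk4 at -0.86 ± 0.20 (limma adjusted p = 0.0469). At 16 h 0 were called higher and 6 lower, led by Igfbp1 at -2.51 ± 0.42 (limma adjusted p = 0.00131), the cell cycle inhibitor Cdkn1a at -2.17 ± 0.51 (limma adjusted p = 0.0127), Pdk4 at -1.51 ± 0.22 (limma adjusted p = 0.000389) and Angptl4 at -1.34 ± 0.35 (limma adjusted p = 0.023). The median of the 25 was -0.54 at 16 h beside -0.39 over all probe sets, of which 5.89% were called lower.

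Per1, Dusp1, Tat, Pck1 and Fkbp4 were not called at any time of the RA course. Tat differed by -1.15 ± 0.33 at 10 h (limma adjusted p = 0.136) and by -1.03 ± 0.35 at 16 h (limma adjusted p = 0.0781). Dusp1 differed in the other direction, by 1.56 ± 0.46 at 10 h (limma adjusted p = 0.158). Per1 had an SE of 1.19 at 16 h.

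Among 7 genes of corticosteroid metabolism and binding, 3 were called lower at 16 h with a list median of -1.12. Over all probe sets 5.89% were called lower at 16 h, with a median of -0.39. Whether the list calls given here hold after quantile normalization was not tested. H6pd, which supplies the enzyme of Hsd11b1 with NADPH inside the endoplasmic reticulum, differed by -1.10 ± 0.25 at 10 h (limma adjusted p = 0.0319) and by -1.12 ± 0.26 at 16 h (limma adjusted p = 0.0127). Akr1d1, the 5-beta-reductase that inactivates steroid hormones, differed by -1.12 ± 0.29 at 16 h (limma adjusted p = 0.0214), and Nr3c2, the mineralocorticoid receptor, by -1.95 ± 0.57 (limma adjusted p = 0.0389). Hsd11b2, which inactivates corticosterone, was lower at 16 h than at 10 h by 1.91 ± 0.47 (log2 difference -1.91, limma adjusted p = 0.0441). Of the 9 receptor coregulators tested, 2 were called lower at 16 h, Ep300 at -1.59 ± 0.35 (limma adjusted p = 0.00923) and Ncor1 at -0.93 ± 0.28 (limma adjusted p = 0.0435). Of 11 SGK1 pathway genes 1 was called lower at 16 h, the activating kinase Pdpk1 at -0.995 ± 0.295 (limma adjusted p = 0.0412), and of 13 chaperones 0 were called by limma, with 4 at an unadjusted p under 0.05.

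Clock genes also differed at 16 h, when 4 of 16 were called lower than in vehicle livers, among them Nfil3 at -2.14 ± 0.45 (limma adjusted p = 0.0071) and Bmal1 at -2.03 ± 0.56 (limma adjusted p = 0.0311). Over all probe sets 5.89% were called lower in that comparison. Between 10 h and 16 h Dbp was higher by 3.82 ± 0.67 (limma adjusted p = 0.00379) and Nr1d1 by 3.71 ± 0.77 (limma adjusted p = 0.0153). The part of the hour of day in the Hsd11b1 step over the same interval was not tested.

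The diet experiment asked which liver transcripts depend on vitamin A supply. Of the 5 genes 0 were called by limma between deficient and adequate livers, where 1.08% of probe sets were, and 2 had an unadjusted p under 0.05. These were Hsd11b1 and Fkbp5, whose means were higher in deficient livers. Tsc22d3 and Sgk1 had nearly equal means over the 4 diets. In the other diet comparisons 0 of the 5 were called as well. These were marginal against adequate (0% of probe sets called, 0 of the 5 with an unadjusted limma p under 0.05), supplemented against adequate (0.0109%, 0 of the 5), supplemented against deficient (0.42%, 2 of the 5) and marginal against deficient (1.69%, 2 of the 5).

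**Figure D4:**
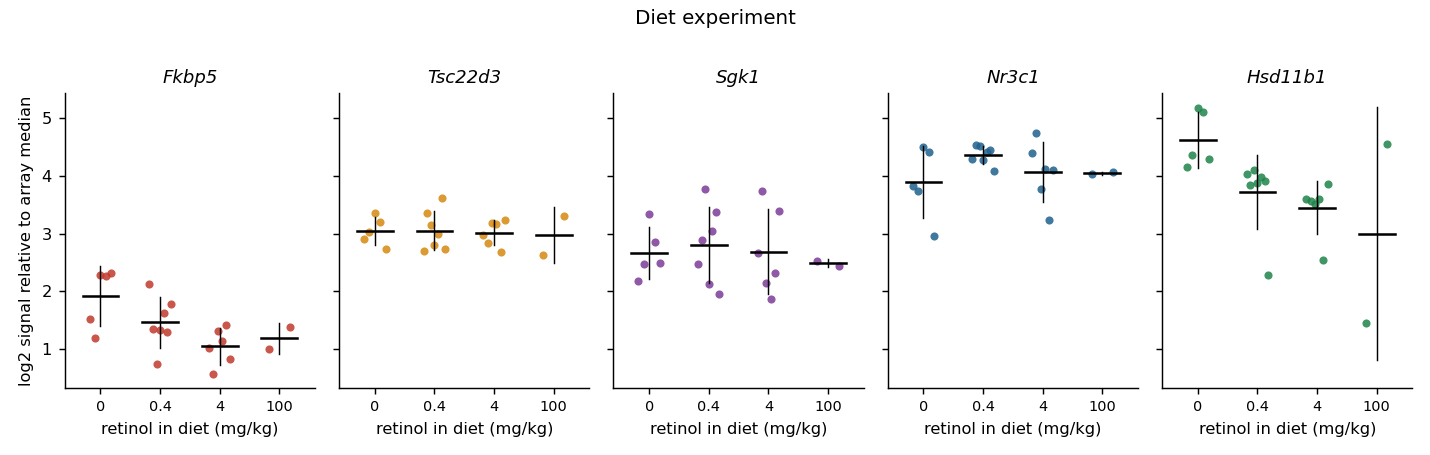
Log2 signal of each gene relative to the array median (vertical axis) by retinol in the diet in mg/kg, where 0 is deficient, 0.4 marginal, 4 adequate and 100 supplemented. Points are arrays (5, 7, 6 and 2), horizontal bars means and vertical lines 1 SD. Hsd11b1 lies at 4.15 to 5.17 in the deficient livers and at 2.54 to 3.85 in the adequate livers.

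Hsd11b1 had log2 levels of 4.15, 4.35, 5.17, 5.10 and 4.29 in the deficient livers. Marginal livers ranged from 2.29 to 4.09 with a median of 3.91, and adequate livers from 2.54 to 3.85 with a median of 3.57. The 2 supplemented livers were at 1.45 and 4.55. Every deficient liver lay above every marginal and adequate liver. One supplemented liver was the lowest of the experiment, and the other lay among the deficient livers. The difference of deficient from adequate was 1.11 ± 0.36 (limma adjusted p = 0.148), and 0.286% of all probe sets had every deficient liver above every adequate one. Marginal livers differed from deficient livers by -0.86 ± 0.34 (limma adjusted p = 0.207), and 0.174% of probe sets had every marginal liver below every deficient one. Supplemented livers differed from deficient livers by -1.48 ± 0.51 (limma adjusted p = 0.312), a value that replicate 1 set: without it the difference was 0.06.

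Fkbp5 had log2 levels of 1.53, 1.19, 2.29, 2.27 and 2.31 in the deficient livers. Marginal livers ranged from 0.75 to 2.14 with a median of 1.36, adequate livers from 0.57 to 1.42 with a median of 1.08, and the supplemented livers were at 1.00 and 1.38. Of the 5 deficient livers 4 lay above all adequate livers. The difference of deficient from adequate was 0.96 ± 0.26 (limma adjusted p = 0.0724), and marginal livers lay between, at 0.45 ± 0.24 over adequate (limma adjusted p = 1).

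Few alternatives called these differences: each gene was called in 3 of 32 alternative fits, with limma adjusted p of 0.0337 to 0.53 for Hsd11b1 and 0.0373 to 0.274 for Fkbp5. After quantile normalization Hsd11b1 differed by 1.36 (limma adjusted p = 0.0345) and Fkbp5 by 1.05 (limma adjusted p = 0.0373), with 116 probe sets called higher and 219 lower in place of 22 and 277. Hsd11b1 was also called without supplemented replicate 1 (limma adjusted p = 0.0337) or 2 (0.0343), and Fkbp5 without marginal replicate 1 (0.0403) or deficient replicate 2 (0.0461). By their database identifiers the arrays were put into 2 runs, of 12 and 8. The identifier of deficient replicate 5 stood apart from both, and this array was counted in run 1, where it is 1 of 2 deficient livers. The deficient minus adequate difference of Fkbp5 was 1.11 among arrays of run 1 and 0.88 among those of run 2, and the difference between runs was 0.23 ± 0.54 (limma interaction, adjusted p = 0.888). The second Fkbp5 probe set differed by 0.78 ± 0.35 over both runs (limma adjusted p = 0.337). In run 1 it was at 2.11 and 1.66 in deficient livers, against 0.18, 0.65, 0.47 and -0.13 in adequate livers, and in run 2 at 0.11, 0.51 and 0.83 in deficient livers, against 0.18 and 0.71 in adequate livers. Its groups overlapped in run 2 and not in run 1. For Hsd11b1 the difference between runs was 0.34 ± 0.74 (limma interaction, adjusted p = 0.88).

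**Figure D5:**
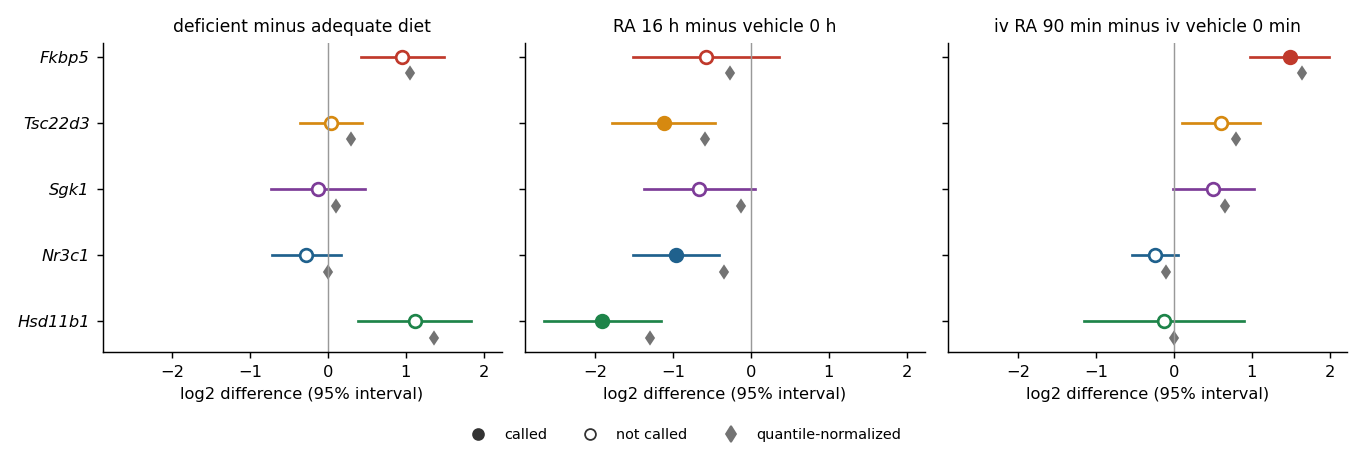
Log2 differences of the 5 genes with 95% intervals (circles and lines, filled where called) and the same differences after quantile normalization (diamonds) for deficient minus adequate diet, RA 16 h minus vehicle and iv RA 90 min minus vehicle. Quantile normalization moves all 5 values at 16 h toward 0, Hsd11b1 to -1.30.

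Tsc22d3 averaged 3.05 ± 0.24 in deficient (SD, n = 5), 3.05 ± 0.34 in marginal (n = 7), 3.01 ± 0.22 in adequate (n = 6) and 2.97 ± 0.48 in supplemented livers (n = 2). The 4 groups overlapped, and the difference of deficient from adequate was 0.04 with a 95% interval of -0.36 to 0.43. Sgk1 averaged 2.67 ± 0.45 in deficient (SD, n = 5), 2.81 ± 0.66 in marginal (n = 7), 2.69 ± 0.73 in adequate (n = 6) and 2.49 ± 0.07 in supplemented livers (n = 2). Its adequate livers alone spanned 1.88 to 3.74, wider than any difference between diets.

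Nr3c1 averaged 3.88 ± 0.62 in deficient (SD, n = 5), 4.36 ± 0.16 in marginal (n = 7), 4.06 ± 0.52 in adequate (n = 6) and 4.04 ± 0.02 in supplemented livers (n = 2). The difference of deficient from adequate was -0.28 ± 0.22 (limma adjusted p = 0.636), and that of the second probe set 0.18 ± 0.74 (limma adjusted p = 0.949), opposite in sign. Marginal livers lay 0.54 ± 0.21 above deficient livers (limma adjusted p = 0.187), with overlap. Without deficient replicate 4 this difference was called, at 0.78 (limma adjusted p = 0.0122), and without deficient replicates 1, 2 and 5 and adequate replicate 5 it was -0.07. The lowest Nr3c1 levels, 2.96 in deficient replicate 5 and 3.24 in adequate replicate 5, were on arrays with 3′ over 5′ Gapdh signals of 0.922 and 1.37.

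Of the 25 other glucocorticoid-responsive genes, 0 were called in any diet comparison by limma, with 6 at an unadjusted p under 0.05 between deficient and adequate livers and 10 between marginal and deficient livers. Paralogs of the 5 genes were measured as a further list of 18. Tsc22d1, a TSC22 family member related to Tsc22d3, was lower in deficient than in adequate livers by 1.10 ± 0.25 (log2 difference -1.10, limma adjusted p = 0.0188) and higher in marginal than in deficient livers by 1.20 ± 0.24 (limma adjusted p = 0.00443). The kinase gene Sgk2 was higher in marginal than in deficient livers by 1.00 ± 0.27 (limma adjusted p = 0.0484), as was Nr3c2, by 1.24 ± 0.32 (limma adjusted p = 0.038).

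The order of a gene's own levels over the groups differed between the 5 genes. Within the iv course Fkbp5 and Sgk1 had their highest mean at 90 min and shared the same order of groups. Tsc22d3 was highest at 30 min, Nr3c1 at 60 min and Hsd11b1 on the vehicle arrays. Within the RA course all 5 had their highest mean on the vehicle arrays. Within the diets Fkbp5 and Hsd11b1 were highest in deficient livers, and Tsc22d3, Sgk1 and Nr3c1 in marginal livers. Neighbours in these orders overlapped apart from Fkbp5 at 90 min and 30 min iv, Tsc22d3 at 60 min iv and vehicle, Nr3c1 at 60 min iv and vehicle and at vehicle and 30 min iv, Nr3c1 at 3 h and 6 h, and Hsd11b1 in deficient and marginal livers. Hsd11b1 had its lowest experiment in the iv course, with group means of 2.48 to 2.80, against 3.19 to 5.10 in the RA course and 3.00 to 4.61 in the diet experiment. Those experiments differ in diet, fasting and route, and levels were not tested across them.

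Over the 47 arrays, with the mean of each experiment subtracted, Sgk1 correlated with Nr3c1 at Pearson r = 0.497 and with Tsc22d3 at 0.496, and Tsc22d3 with Nr3c1 at 0.457. Fkbp5 correlated with none of the other 4 above 0.242. Arrays share their group and their quality in these values, and they are given as a description. Among 10145 genes compared, those most like Fkbp5 were Rhbdd2 (r = 0.637), Nedd4l (0.556) and A2ml1 (0.553), and those most like Tsc22d3 were Srsf6 (0.641), Ncoa4 (0.636) and Cebpz (0.634). Nearest to Sgk1 were Erlin1 (0.635), Hif1a (0.613) and Lsm14a (0.593), and nearest to Hsd11b1 were A2m (0.646), Gja1 (0.616) and Hsdl2 (0.587). Nr3c1 had the closest neighbours, with Arhgap21 at 0.844, Abca8a at 0.835 and, at 0.847, a probe set that the platform table names Uty. Uty is a Y-linked gene and all rats were labelled female; what that probe set measures here was not tested.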

How the data were processed

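Liver RNA of 47 rats was hybridised to Affymetrix rat expression arrays, 1 rat per array. The values used are the log2 signals of the series table that the authors deposited, made with GCOS per the submitters' processing notes. Its version and the scaling are not given in the sources used here, and each array's median lies at 0. The table holds 31099 probe sets, of which 20832 carry 1 gene symbol in the platform annotation, 436 several and 9831 none, and 57 control probe sets were left out. Gene positions and promoter windows come from RefSeq tables of GRCr8 (20764 gene identifiers matched).

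Groups follow the sample titles and treatment notes. The 3 experiments were fitted separately in limma 3.58.1 under R 4.3.3 (lmFit on group means, eBayes with an intensity trend), with the run of database identifiers as a covariate in the diet experiment. A probe set was tested where 2 or more arrays of the experiment had it above their 40th percentile, and p-values were adjusted over all of them (27601, 28869 and 22781 in the diet, RA and iv experiments) by the Benjamini-Hochberg method, with calls under 0.05. The same fit was also run on simulated data, with an outcome not given here. Tables and plots used Python 3.11.15, pandas 2.3.3, numpy 2.4.6 and matplotlib 3.10.9. Nothing states that rats of a group were housed or treated apart, so the p-values measure the spread between these rats. Precision is limited by how many arrays a group has.

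Named genes are the 5 genes themselves in every comparison and the 3 genes most like each of the 5. Per1, Dusp1, Tat, Pck1 and the co-chaperone Fkbp4 are named in both RA courses whether called or not. Up to 4 called genes of each pathway list with the largest change per comparison could be named, and not all of them are. Among those left out are the paralogs Fkbp11, Fkbp8 and Fkbp1a, called lower at 16 h than in vehicle livers. Klf10 and Bhlhe40, called lower in deficient than in adequate livers, are others. The genes and lists were chosen with earlier results of these data known. As alternatives, array weights, quantile normalization, eBayes with no intensity trend, tests without the level filter, the mean over probe sets, 1 fit over all arrays, a replicate block, each array left out, arrays that stood apart left out, and other treatments of the run were tried.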

Additional observations from a re-analysis of the deposited data

Results flagged for a closer look

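In all, 3 values of the 5 genes lay far from the rest of their own group, by Dixon's ratio of the gap to the group's range. Chance picks out about 1 such set of values in 20. The test covered 20 combinations of gene and group, in groups of 4 to 7 arrays, and genes of 1 group share its arrays. Hsd11b1 in marginal replicate 7 was at 2.285, below the nearest of the other 6 livers at 3.833 (ratio 0.858). Hsd11b1 in adequate replicate 5 was at 2.538, below the nearest liver of its group at 3.516 (ratio 0.747), and that array had the highest 3′ over 5′ actin signal of the diet experiment, at 3.156. Sgk1 in replicate 4 at 10 h of the RA course was at 2.254, above the nearest array at 1.779 (ratio 0.963).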

How the results depend on the processing

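Each difference of the 5 genes was labelled in each alternative fit. It was reversed if its sign changed and either fit called it, or if it changed sign by more than the gene's residual SD in limma. Of the alternatives other than leaving out 1 array, 713 values kept their side of the threshold, 8 passed it, 16 no longer did and 8 reversed. With 1 array left out the numbers were 1311, 6, 13 and 5. Smaller sign changes with no call are among the values kept, and some of them exceeded 1 SE. Counts of called genes among the 5 moved as follows. Quantile normalization gave 2 for deficient against adequate and 0 at 16 h. eBayes without a trend gave 0 at 16 h, 0 for 16 h against 10 h, 0 at 90 min and 0 for 90 min against 60 min. Array weights gave 2 at 6 h and 2 at 10 h. Leaving out the arrays that stood apart gave 1 at 10 h, 0 at 16 h and 0 for 16 h against 10 h. The fit of all 47 arrays gave 1 at 10 h, 0 at 90 min and 0 for 90 min against 60 min. With 1 array left out the counts ranged from 0 to 1 for deficient against adequate, supplemented against deficient, marginal against deficient, 90 min against vehicle and 90 min against 60 min, and from 1 to 3 at 16 h. The causes were not tested.

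Reversed values were all uncalled. Nr3c1 without the arrays that stood apart was 0.203 for deficient against adequate, -0.269 for supplemented against deficient, -0.073 for marginal against deficient and 0.294 for 16 h against 10 h, which was 0.167 after quantile normalization. It was -0.127 for marginal against adequate in the second run alone and 0.205 at 3 h as a mean over probe sets. Leaving out supplemented arrays moved Tsc22d3 between -0.383 and 0.299 against adequate and between -0.42 and 0.262 against deficient, and Hsd11b1 between -1.916 and 1.176 against adequate and between -3.029 and 0.063 against deficient. Hsd11b1 for 90 min against 60 min ranged from -0.534 to 0.512. Replicate numbers were not taken to pair the rats: of 22, 30 and 15 same-numbered pairs 0 had a correlation of deviations above 0.1. Such a correlation over all probe sets cannot show that same-numbered rats shared nothing. A replicate block changed no call of the 5 genes and turned Sgk1 for supplemented against adequate to 1.191. Quantile normalization changed the counts over all probe sets to 170 (107 higher, 63 lower) for supplemented against deficient, against 116 (97, 19), to 341 (233, 108) for marginal against deficient, against 466 (442, 24), to 140 (96, 44) at 6 h, against 58 (34, 24), to 295 (169, 126) at 10 h, against 141 (31, 110), and to 260 (84, 176) for 16 h against 10 h, against 233 (27, 206). The iv vehicle and supplemented diet groups hold 2 arrays each.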
